A study of Mus musculus with 16 samples.

Results

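The 30 genes described here carry fatty acids from the blood into the heart muscle cell and break them down. They comprise 4 genes of uptake and activation, 4 of the carnitine shuttle, 5 acyl-CoA dehydrogenases, 8 genes of the later steps of beta-oxidation, 3 auxiliary enzymes for unsaturated acids, 3 of electron transfer and 3 regulators. They were chosen by name for these roles and by no threshold on measured values, but with earlier results of these data known. All 30 were found among the 24982 entries of the count table. Libraries of total RNA came from the left ventricle of 16 C57BL/6 mice, 1 per mouse. The 8 mice of the first group (4 males, 4 females) were labelled Tln2-null, that is, without the talin gene Tln2. The 8 mice of the other group (4 males, 4 females), here called knockout, were Tln2-null as well and carried a deletion of Tln1 directed to cardiac fibroblasts (CF). Talins are adaptors between integrins and the actin cytoskeleton. Both groups were injected with tamoxifen over 5 days and, after an interval of 2 weeks, were given angiotensin II (AngII), a hormone that raises blood pressure, from pumps during 8 weeks. The age of the mice and the promoter that drove the deletion appear nowhere in the sources used here, and neither untreated nor wild-type hearts were analysed here.

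The adult heart draws most of its energy from fatty acids. Long-chain acids are activated to acyl-CoA, pass the inner mitochondrial membrane as carnitine esters and are shortened there in repeated rounds of dehydrogenation, hydration, another oxidation and thiolysis. The electrons of the first oxidation enter the respiratory chain through the electron transfer flavoprotein. In hypertrophied and failing hearts, transcripts of this pathway are known to fall.

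Total counts per library ran from 11161766 to 19221673. Levels are given as CPM, the counts scaled to library size by the TMM method, and a level of 3 counts corresponded to 0.156 to 0.269 CPM. The summed CPM of the 30 genes made up 2.21 to 2.85 percent of a library. Tln1 stood at 289 ± 20.7 CPM in the Tln2-null mice and at 274 ± 31.3 CPM in the knockout mice, and Tln2 at 66.8 ± 7.25 and 67.1 ± 2.32 CPM (SD, n = 8 each), and counts over a whole gene do not show whether a deleted exon is missing. In 4 of the 8 libraries labelled female, 3 of them knockout, 4 Y-linked genes together reached 1.11 to 2.88 percent of the mean of the males, against 0.175 to 0.391 percent in the other 4. Knockout replicate 8 and Tln2-null replicate 8 stood apart by the clock gene Arntl, at 27.1 to 28.4 CPM against 3.66 to 8.44 CPM in the other 14 libraries. Nothing in the labels says more about how the mice were housed or processed, and replicate numbers only name a mouse.

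The tissue held the markers of heart muscle. All 10 cardiomyocyte markers were above 1 CPM, and their sum ran from 46175 to 51426 CPM in Tln2-null and from 45118 to 53851 CPM in knockout mice (medians 48690 and 52098). The 4 atrial markers summed to 423 to 1906 CPM in Tln2-null and 292 to 1234 CPM in knockout mice. Most of this was Nppa, at 290 to 1899 CPM over all mice, while Myl7 and Sln stayed below 1 CPM. The sum of 10 fibroblast markers ran from 2749 to 4089 CPM in Tln2-null mice (median 3440) and from 2177 to 3579 CPM in knockout mice (median 2626). Markers of tissues that also burn or store fat were near 0. The 6 adipocyte markers summed to 0.767 to 6.75 CPM, the 4 liver markers to 0.423 to 1.09 CPM and the 5 skeletal muscle markers to 0.653 to 1.89 CPM, with Myh4 at 0 counts in every library.

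**Figure D1:**
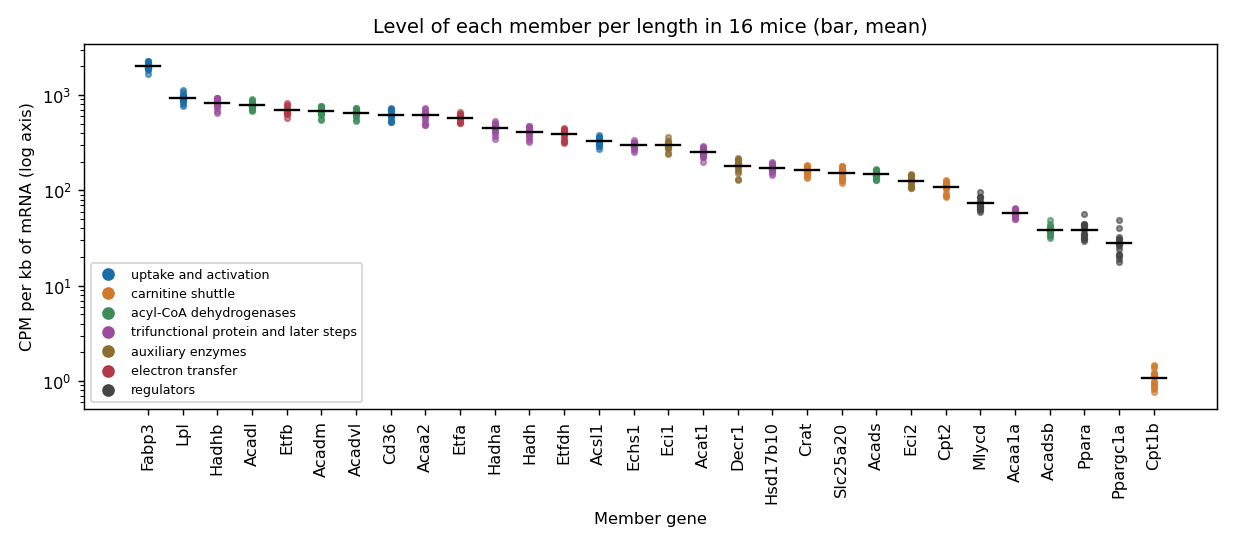
Level of each of the 30 genes in CPM per kilobase of mRNA (log axis), 1 point per mouse (16 mice) and a bar for the mean, coloured by role. Fabp3 is highest at 2011 and Cpt1b lowest at 1.09 CPM per kilobase, and at both ends of the order the points stand apart from those of the next gene.

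Levels were compared between genes as CPM per kilobase of the principal mRNA. The fatty acid binding protein gene Fabp3 was the highest of the 30, at 2011 ± 164 CPM per kilobase (mean and SD over 16 mice). The lipase gene Lpl followed at 934.5 ± 95.4, then Hadhb at 826.8 ± 90, Acadl at 785 ± 62.2 and Etfb at 692 ± 61.2 CPM per kilobase. Among neighbours in this order, Fabp3 exceeded Lpl in 16 of 16 mice and Lpl exceeded Hadhb in 14, but Acadvl exceeded Cd36 in only 10, Echs1 exceeded Eci1 in 8 and Slc25a20 exceeded Acads in 8. The last 2 pairs thus had no order beyond the spread between mice. The malonyl-CoA decarboxylase gene Mlycd, at 73.2 ± 10.4, and the regulators Ppara, at 38.3 ± 7.33, and Ppargc1a, at 27.8 ± 8.09 CPM per kilobase, lay near the lower end.

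Cpt1b stood apart at 1.09 ± 0.225 CPM per kilobase, and its level is uncertain. It encodes the muscle form of carnitine palmitoyltransferase, the enzyme that admits long-chain acids to the mitochondrion. The counts were 37 to 82 per library, and 81.4 percent of its exon bases (GENCODE M21) were shared on the same strand with the read-through gene Gm44502, which itself had 0 to 1 counts. The neighbour Chkb had 0 to 5 counts, while the liver form Cpt1a stood at 75.6 ± 13.6 CPM. How reads shared by overlapping genes were counted is given nowhere in the sources used here. Etfb shared 53.0 percent of its exon bases on the same strand with Gm45233, a gene that has no entry in the count table. Acadvl shared 42.9 percent with Dvl2 (59 to 196 counts) on the opposite strand.

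Comparing the genotypes asks whether transcripts of fat oxidation in the ventricle went with the loss of Tln1 from fibroblasts under AngII. Most of the 30 genes lay slightly higher in knockout mice, but no gene passed the test and the ranges of the groups overlapped for all 30. The log2 fold change, knockout minus Tln2-null, was above 0 for 28 of 30, a direction held by 48.8 percent of the 13775 genes tested. Because the list was made with earlier results of these data known, this count is a description only. The median of the 30 was 0.08, a fold of 1.05, against -0.0027 over all genes tested, and the values ran from -0.05 for Mlycd to 0.20 for Ppargc1a, where the upper end rested on knockout replicate 2 (Ppargc1a 0.07 without it). Differences were tested with edgeR's quasi-likelihood test with sex as a term and Benjamini-Hochberg adjustment over all genes tested, called under 0.05, and ± beside a log2 fold change is its standard error. None of the 30 passed (smallest adjusted p = 0.935), as 0 percent of all genes did. At an unadjusted p under 0.05 there were 0 of 30, against 5.08 percent of all genes. The groups of 8 did not overlap for 0 of 30 genes and for 0.0436 percent of all genes. Each 95% interval holds for a single gene in this fit. The highest upper end of the 30 was 0.55 on the log2 scale (Ppargc1a) and the lowest lower end was -0.24 (Mlycd).

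The count of 28 changed with the mice and with the terms of the fit. Without the 4 females with Y-linked counts, 18 of 30 were above 0 and the median was 0.0025, a fit that kept 1 knockout female, replicate 2, in which 2 of the 30 genes exceeded their own mean over mice. With the log2 sum of the fibroblast markers as a term, 4 of 30 were above 0 and the median was -0.04. That term was chosen after seeing the data. All 10 of these markers were themselves lower in knockout mice, so the term was not independent of genotype. In bulk tissue, fewer cells of a type and less RNA per cell cannot be told apart.

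**Figure D2:**
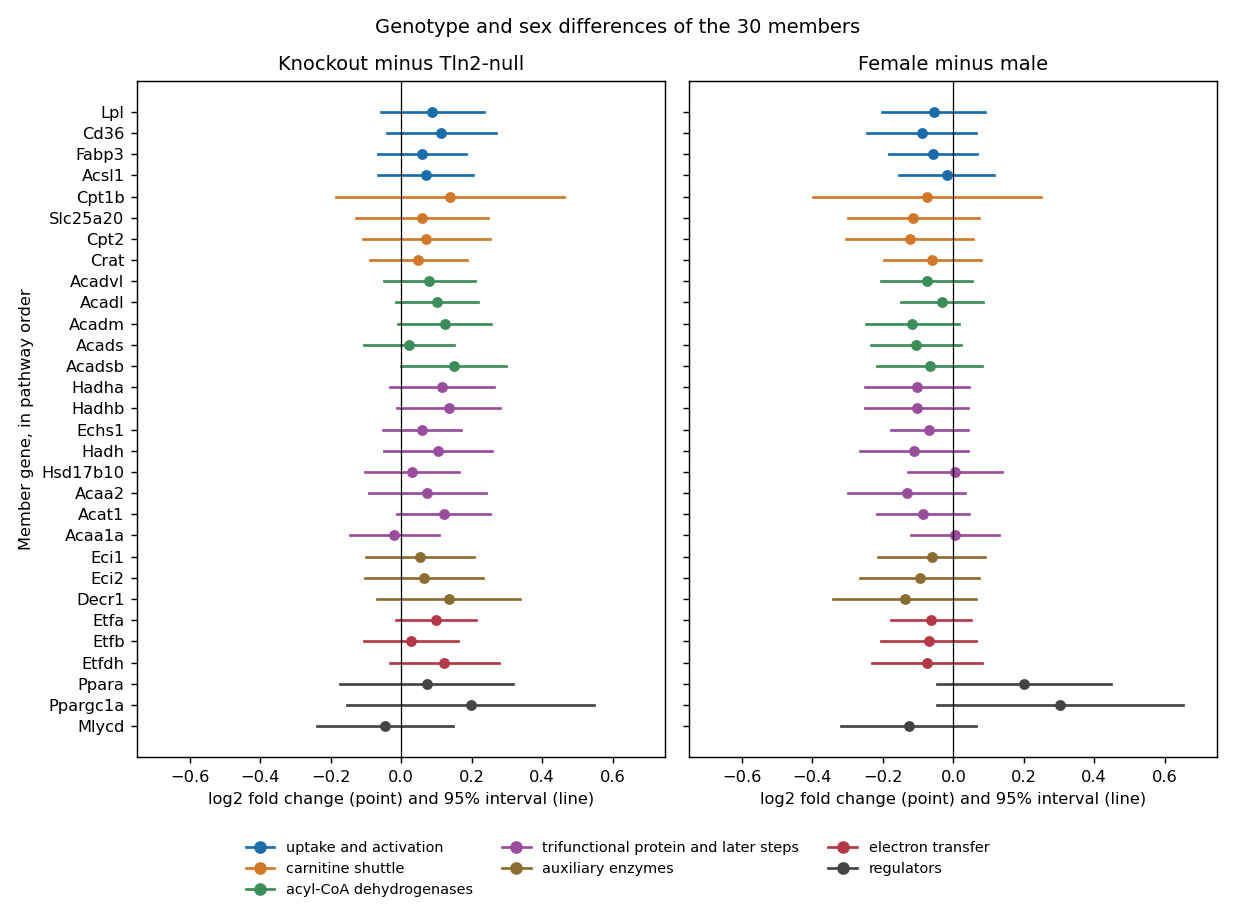
Log2 fold change of each of the 30 genes (point) with its 95% interval (line), in pathway order, between the genotypes (left, knockout minus Tln2-null) and between the sexes (right, female minus male). Of the 30 points, 28 lie above 0 on the left and 26 below 0 on the right, and none of the 30 passed the test in either comparison.

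Fatty acid uptake and activation comprised Lpl, Cd36, Fabp3 and Acsl1, all 4 above 0 between genotypes (median log2 fold change 0.08) and below 0 between sexes (-0.06, female minus male). Lpl, which encodes the lipase that frees fatty acids from circulating triglyceride (chromosome 8, 68880555 to 68906932, GRCm38), stood at 3123 to 4428 CPM (median 3732) in Tln2-null and at 3618 to 4697 CPM (median 3945) in knockout mice. Its highest library, knockout replicate 6, lay above every other mouse of both groups, and the groups overlapped (log2 fold change 0.09 ± 0.07, adjusted p = 0.942). Cd36, which encodes a fatty acid transporter of the cell surface, stood at 1760.4 to 2413 CPM (median 2066) in Tln2-null mice and 1894 to 2484 CPM (median 2164) in knockout mice. For Cd36, 7 of 8 knockout mice exceeded the Tln2-null mean (0.11 ± 0.07, adjusted p = 0.935). Fabp3, which encodes the heart's cytosolic fatty acid binding protein (chromosome 4, 130308738 to 130315463), stood at 1497 to 1860.2 CPM (median 1609.7) and 1376 to 1892 CPM (median 1703). Its lowest and highest mice were both knockout, and the difference was 0.06 ± 0.06 (adjusted p = 0.946). Acsl1, the main long-chain acyl-CoA synthetase of the heart, stood at 1053 to 1406 CPM (median 1255) and 1135 to 1467 CPM (median 1283) (0.07 ± 0.06). Its groups differed by less than their spread.

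The carnitine shuttle comprised Cpt1b, Slc25a20, Cpt2 and Crat, all 4 above 0 between genotypes with a median of 0.07. Cpt1b stood at 2.21 to 4.32 CPM (median 2.68) in Tln2-null and 2.42 to 3.95 CPM (median 3.36) in knockout mice, with both its lowest and its highest mouse in the Tln2-null group. Its difference was 0.14 ± 0.15, the widest interval among the enzymes (-0.19 to 0.46). Slc25a20, the carnitine-acylcarnitine carrier, and Cpt2, which turns acylcarnitine back to acyl-CoA inside the mitochondrion, differed by 0.06 ± 0.09 and 0.07 ± 0.09. Crat, which moves acetyl and other short acyl groups to carnitine (chromosome 2, 30400476 to 30416017), stood at 576 to 769 CPM (median 681) and 621 to 778 CPM (median 688). This is a difference of 0.05 ± 0.07 (adjusted p = 0.961), with 5 of 8 knockout mice above the Tln2-null mean.

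The acyl-CoA dehydrogenases carry out the first oxidation and divide the work by chain length. All 5 were above 0 between genotypes, with a median of 0.10. Acadm, the medium-chain enzyme (chromosome 3, 153922353 to 153944643), stood at 1161 to 1420.4 CPM (median 1340.5) in Tln2-null and at 1110.3 to 1563 CPM (median 1529.5) in knockout mice. The highest 6 knockout mice lay above the whole Tln2-null range, and knockout replicate 2 lay below it. The difference was 0.12 ± 0.06 (fold 1.09, 95% interval 0.994 to 1.19, adjusted p = 0.935). Acadsb, which acts on short branched acyl-CoA (chromosome 7, 131410601 to 131446211), stood at 203 to 241 CPM (median 223) and 191 to 297 CPM (median 245). It had the lowest p of the 30 genes, 0.15 ± 0.07 with adjusted p = 0.935, and 4 of 8 knockout mice lay above the Tln2-null range.

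Acadl, the long-chain enzyme (chromosome 1, 66830839 to 66863309), was the most abundant dehydrogenase per length and stood at 1349 to 1577 CPM (median 1459.6) in Tln2-null and 1295 to 1723 CPM (median 1548) in knockout mice. Again its lowest mouse, replicate 2, and its highest, replicate 7, were both knockout (0.10 ± 0.06, adjusted p = 0.935). Acadvl, the very long-chain enzyme of the inner membrane, differed by 0.08 ± 0.06. Acads, the short-chain enzyme (chromosome 5, 115110299 to 115119346), had the smallest difference of the 5, 0.02 ± 0.06 (adjusted p = 0.981), and 4 of 8 knockout mice exceeded the Tln2-null mean. Without knockout replicate 5 its difference was -0.00094, on the other side of 0.

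Acadm is shown here with the bases around its start because it carried the motifs of 2 families of regulators of mitochondrial genes in 1 window. In RefSeq (GRCm38.p6), 24 of the 30 genes had a window of 250 bases before to 50 after the start of transcription. The Acadm window, chr3:153944594-153944893 on the minus strand, is printed 5′ to 3′ along the gene, with capitals for a nuclear receptor half-site and an NRF1 core, both read on the opposite strand:
Acadm: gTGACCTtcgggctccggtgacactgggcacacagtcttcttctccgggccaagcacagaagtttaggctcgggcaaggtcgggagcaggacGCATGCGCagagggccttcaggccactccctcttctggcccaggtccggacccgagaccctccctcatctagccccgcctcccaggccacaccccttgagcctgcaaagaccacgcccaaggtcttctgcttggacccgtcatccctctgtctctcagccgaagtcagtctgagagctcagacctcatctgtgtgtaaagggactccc
The half-site AGGTCA occurred on either strand in 4 of 24 windows (Acadm, Acadvl, Cd36 and Echs1), 16.7 percent against 16.3 percent of 32851 windows. The NRF1 core GCGCATGC occurred in 4 of 24 (Acadm, Etfa, Etfdh and Ppara), 16.7 percent against 2.71 percent. The Sp1 box GGGCGG occurred in 18 of 24, 75 percent against 35.7 percent. CCAAT occurred in 9 of 24 (37.5 against 37.4 percent) and the oestrogen-related receptor site TCAAGGTCA, which contains the half-site, in 0 of 24 (0.423 percent of all windows). These are matches of letters, in 1 window per gene for the 24. The 32851 windows belong to 27025 genes, some with more than 1 window, and were not limited to genes expressed in these hearts.

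The later steps comprised Hadha, Hadhb, Echs1, Hadh, Hsd17b10, Acaa2, Acat1 and Acaa1a, of which 7 of 8 were above 0 between genotypes (median 0.09). Hadha and Hadhb encode the subunits of the mitochondrial trifunctional protein, which completes the round for long-chain acids. Hadhb (chromosome 5, 30155253 to 30184593) stood at 1326 to 1850.2 CPM (median 1635) in Tln2-null and 1388 to 1913 CPM (median 1839.8) in knockout mice. In 7 of 8 knockout mice it exceeded the Tln2-null mean, and the difference was 0.13 ± 0.07 (fold 1.10, 95% interval 0.992 to 1.21, adjusted p = 0.935). Hadha (chromosome 5, 30119423 to 30154980) stood at 1399.9 to 1889 CPM (median 1808) and 1511 to 2125 CPM (median 1938) (0.12 ± 0.07, adjusted p = 0.935).

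These 2 genes lie head to head, with starts at 30154980 (Hadha, minus strand) and 30155253 (Hadhb, plus strand) and 272 bases between them. Their start windows therefore overlap by 228 bases, and 1 sequence serves for both. The Hadhb window, chr5:30155003-30155302 on the plus strand, is printed with the shared bases in capitals:
Hadhb: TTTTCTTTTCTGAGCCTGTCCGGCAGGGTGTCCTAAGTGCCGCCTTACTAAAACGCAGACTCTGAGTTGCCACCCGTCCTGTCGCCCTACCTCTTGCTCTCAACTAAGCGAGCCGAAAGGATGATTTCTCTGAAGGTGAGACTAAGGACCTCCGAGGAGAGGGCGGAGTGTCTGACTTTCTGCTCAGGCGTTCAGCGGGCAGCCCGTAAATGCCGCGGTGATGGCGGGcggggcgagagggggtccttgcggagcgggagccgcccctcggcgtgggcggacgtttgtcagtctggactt
Over the 16 mice, log2 CPM of Hadha and Hadhb moved together with Pearson r = 0.911 and Spearman rho = 0.791 (permutation p = 2e-05 and 0.00041, adjusted over 8 pairs 8e-05 and 0.00109). Without the 2 mice farthest from the median of Hadha r was 0.798, and within the Tln2-null and the knockout mice it was 0.927 and 0.872 (exact permutation p = 0.000918 and 0.0116). Neither gene was the closest partner of the other. Hadha was closest to Acaa2 (r = 0.944) and Hadhb to Decr1 (r = 0.944), genes on other chromosomes. A part of the shared start in the relation of Hadha with Hadhb was not tested.

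Acat1, a thiolase that also acts on ketone bodies and isoleucine (chromosome 9, 53580522 to 53610350), stood at 765 to 866 CPM (median 831) in Tln2-null and 683 to 985 CPM (median 915) in knockout mice. The pattern was that of Acadm, with 6 knockout mice above the Tln2-null range and knockout replicate 2 below it (0.12 ± 0.06, adjusted p = 0.935). Hadh, the dehydrogenase for medium and short hydroxyacyl-CoA, Echs1, the enoyl-CoA hydratase, and Acaa2, the mitochondrial thiolase, differed by 0.10 ± 0.07, 0.06 ± 0.05 and 0.07 ± 0.08. Echs1 varied least of the 30 genes, with an SD of 0.10 on the log2 scale over the 16 mice. Hsd17b10, a dehydrogenase of branched acids and steroids on the X chromosome, differed by 0.03 ± 0.06. Acaa1a, the peroxisomal thiolase (chromosome 9, 119341028 to 119350296), stood at 96.4 to 112 CPM (median 101) and 87.5 to 116 CPM (median 101) and was 1 of 2 genes below 0 (-0.02 ± 0.06, adjusted p = 0.987). Its level is uncertain so far as reads of the similar gene Acaa1b were counted with it. The counts assigned to Acaa1b itself were low, at 0.778 to 1.97 CPM over the 16 mice. The sign of Acaa1a turned when any of 3 single mice was left out (Tln2-null replicate 3, 0.0075; knockout replicates 6 and 8, 0.0086 and 0.01).

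The auxiliary enzymes move or remove double bonds of unsaturated acids. Eci1, an enoyl-CoA isomerase (chromosome 17, 24426683 to 24439316), stood at 278 to 372 CPM (median 335) in Tln2-null and 274 to 409 CPM (median 347) in knockout mice (0.05 ± 0.07, adjusted p = 0.961). Eci2, another isomerase (chromosome 13, 34977748 to 35027115), stood at 185 to 252 CPM (median 211) and 186 to 256 CPM (median 219) (0.07 ± 0.08, adjusted p = 0.955), and its ranges were nearly the same. Decr1, the dienoyl-CoA reductase, differed by 0.13 ± 0.10. Decr1 ran from 383 CPM in Tln2-null replicate 4 to 639.6 CPM in knockout replicate 7, the widest range of any enzyme other than Cpt1b (1.67-fold).

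Electron transfer comprised Etfa and Etfb, the subunits of the electron transfer flavoprotein, and Etfdh, the enzyme that passes its electrons to ubiquinone. Etfa stood at 704 to 844 CPM (median 803) in Tln2-null and 712 to 914 CPM (median 852) in knockout mice, with 7 of 8 knockout mice above the Tln2-null mean (0.10 ± 0.05, adjusted p = 0.935). Etfdh differed by 0.12 ± 0.07. Etfb (chromosome 7, 43444072 to 43457800) stood at 565 to 681 CPM (median 616) and 514 to 734 CPM (median 621), a smaller difference of 0.03 ± 0.06 (adjusted p = 0.975), which was -0.00248 and -0.00363 without knockout replicates 4 and 5. Etfa and Etfdh moved together over the 16 mice (r = 0.922, rho = 0.897, adjusted permutation p = 8e-05 each, the raw p of 1e-05 being the smallest the permutations give; r = 0.892 without the 2 mice farthest from the median of Etfa), and Etfa and Etfb did so less tightly (r = 0.703, rho = 0.688, adjusted permutation p = 0.004 and 0.00673; r = 0.561 without those mice). Within the Tln2-null and the knockout mice Etfa with Etfb had r = 0.594 and 0.821 (exact permutation p = 0.121 and 0.0126). A difference between these 2 pairs was not tested.

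The regulators included the most variable of the genes. Ppargc1a encodes a coactivator that raises transcription of mitochondrial and fatty acid genes (chromosome 5, 51454249 to 52115853). It stood at 114 to 259 CPM (median 159) in Tln2-null and 134 to 316 CPM (median 176) in knockout mice. Its SD of 0.39 on the log2 scale was the largest of the 30 genes, and the highest mouse was 2.79 times the lowest. The genotype difference was 0.20 ± 0.17 (fold 1.15, 95% interval 0.899 to 1.46, adjusted p = 0.942). With single mice left out it ran from 0.07, without knockout replicate 2, to 0.28, without Tln2-null replicate 8. Without the 4 females with Y-linked counts it was 0.48. The only knockout female in that fit was replicate 2, the mouse with the highest Ppargc1a. The Ppargc1a window, chr5:51567676-51567975 on the minus strand, lies inside the gene's annotated span. It is shown because Ppargc1a ran against most of the other genes over the mice, and it held none of the motifs searched:
Ppargc1a: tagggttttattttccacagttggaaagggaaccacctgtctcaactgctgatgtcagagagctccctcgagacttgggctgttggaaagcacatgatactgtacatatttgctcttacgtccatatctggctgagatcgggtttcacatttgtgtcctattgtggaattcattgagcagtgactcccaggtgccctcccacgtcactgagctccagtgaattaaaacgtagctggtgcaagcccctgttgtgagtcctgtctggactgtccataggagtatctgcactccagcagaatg
Ppara, the fatty acid receptor that drives transcription of many of the enzymes (chromosome 15, 85734910 to 85806851), stood at 99.7 to 194 CPM (median 115) and 108 to 153 CPM (median 134) (0.07 ± 0.12, adjusted p = 0.967). Its lowest and highest mice were both Tln2-null. Mlycd, which lowers malonyl-CoA and so releases the brake on the carnitine shuttle (chromosome 8, 119394852 to 119421838), stood at 125 to 207 CPM (median 155) and 133 to 184 CPM (median 146). It was the lowest of the 30 differences (-0.05 ± 0.09, adjusted p = 0.974), and 2 of 8 knockout mice exceeded the Tln2-null mean. Without Tln2-null replicate 1, its highest mouse, the difference was 0.01.

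**Figure D3:**
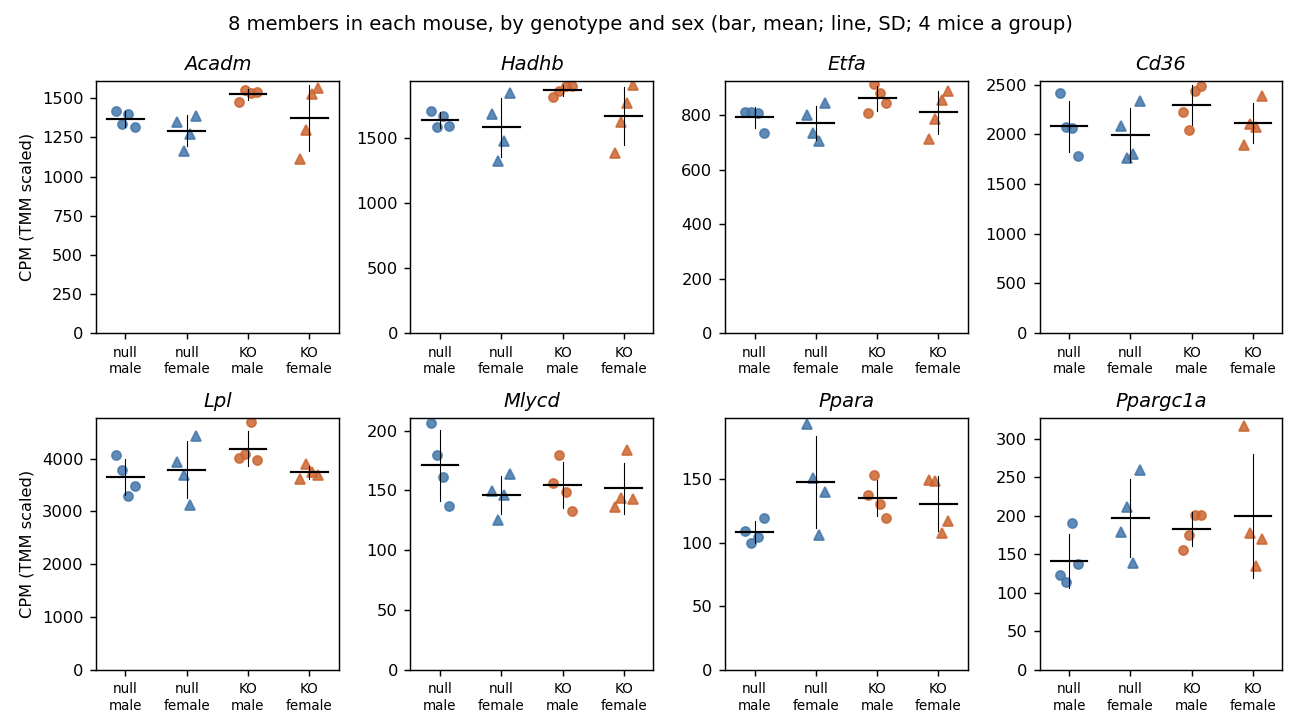
CPM of 8 of the genes in each mouse (circles, males; triangles, females) by genotype (null, Tln2-null; KO, knockout) and sex, with the mean (bar) and SD (line) of 4 mice. Acadm and Hadhb are tight and high in knockout males and spread widely in knockout females, Ppara is lowest in Tln2-null males, and 1 knockout female holds the highest Ppargc1a at 316 CPM.

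The sexes were compared in the same model. Most of the genes lay slightly lower in females, and again none passed. The log2 fold change, female minus male, was below 0 for 26 of 30, against 50.4 percent of all genes, with a median of -0.07 against -0.00079 over all genes tested. None of the 30 passed (smallest adjusted p = 0.9998), against 0.0871 percent of all genes, and at an unadjusted p under 0.05 there were 0 of 30 against 3.69 percent. Acadm stood at 1318 to 1554 CPM (median 1447) in males and 1110.3 to 1563 CPM (median 1321) in females, a difference of -0.12 ± 0.06, the lowest p of the 30. The females held both the lowest and the highest mouse. Acads stood at 265 to 315 CPM (median 284) in males and 239 to 299 CPM (median 267) in females (-0.11 ± 0.06). The summed fibroblast markers ran from 2177 to 4089 CPM in males (median 2827) and from 2393 to 3974 CPM in females (median 3207), and 8 of 10 of them were above 0 between sexes (median 0.19, 0 passed). With that sum as a term the median of the 30 genes between sexes was -0.03. The regulators Ppargc1a and Ppara lay on the other side of 0 from the enzymes. Ppargc1a stood at 114 to 201 CPM (median 165) in males and 134 to 316 CPM (median 178) in females (0.30 ± 0.17), and Ppara differed by 0.20 ± 0.12. The other 2 genes above 0, Acaa1a and Hsd17b10, did so by 0.01 each. Without the 4 females with Y-linked counts the median of the 30 was -0.12, and without knockout replicate 2 it was -0.04.

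Whether the genotype difference depended on sex was tested as an interaction. None of the 30 genes passed (smallest adjusted p = 0.980), as 0 percent of all genes did, and 1 of 30 had an unadjusted p under 0.05, against 4.27 percent. That gene was Ppara. It stood at 99.7 to 119.6 CPM in the 4 Tln2-null males and at 119.7 to 153 CPM in the 4 knockout males, groups that just failed to overlap. Nor did the male groups overlap for Acadm (Tln2-null up to 1420 CPM, knockout from 1475 CPM), Hadhb (1711 and 1816) and Acat1 (866 and 882). The share of all genes without overlap in males was not counted. In females the order of Ppara was turned, at 107 to 194 CPM in the 4 Tln2-null and 108 to 149.8 CPM in the 4 knockout mice, which overlapped. The genotype difference was 0.32 ± 0.15 in males and -0.18 ± 0.15 in females, and the interaction was -0.50 ± 0.21 (adjusted p = 0.98). Leaving out Tln2-null replicate 2 gave an interaction of -0.34 for Ppara (adjusted p = 0.957). Without the 4 females with Y-linked counts the interaction of Ppara was -0.30, in a fit whose only knockout female was replicate 2.

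The next lowest p in this test belonged to Lpl and Eci2. Lpl stood at 3292 to 4078 CPM in Tln2-null and 3983 to 4697 CPM in knockout males, and at 3123 to 4428 CPM and 3618 to 3908 CPM in females. It had a genotype difference of 0.20 ± 0.09 in males and -0.02 ± 0.09 in females (interaction -0.22 ± 0.13). Eci2 stood at 189 to 252 CPM in Tln2-null and 212 to 239 CPM in knockout males, and at 185 to 226 CPM and 186 to 256 CPM in females. All 4 ranges of Eci2 overlapped. Its differences were -0.05 ± 0.11 and 0.18 ± 0.11 (interaction 0.23 ± 0.16). Its interaction was -0.08 once the females with Y-linked counts were left out, with knockout replicate 2 as the only knockout female. Within males, 24 of 30 genes were above 0 (48.5 percent of all genes), 0 of 30 passed (0 percent) and 2, Acadsb (0.23 ± 0.10) and Ppara, had an unadjusted p under 0.05 (6.07 percent). Within females, 28 of 30 were above 0 (50 percent of all genes), 0 of 30 passed (0 percent) and 0 had an unadjusted p under 0.05 (3.31 percent). Medians were 0.11 in males and 0.08 in females.

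The sample titles end in a number whose meaning the sources used here do not give. As a linear term beside genotype and sex, it was called for 0 of 30 genes (smallest adjusted p = 0.154), against 6.34 percent of all genes. At an unadjusted p under 0.05 there were 2 of 30, Acadsb and Hadh, against 24.2 percent of all genes. With the number as a term, 28 of 30 genes were above 0 between genotypes, as without it.

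Across mice the enzymes moved largely as a block. For each mouse, the median deviation of the 30 genes from their own means ran from -0.25 to 0.05 on the log2 scale in Tln2-null mice (median 0.0029) and from -0.23 to 0.15 in knockout mice (median 0.09). The lowest 3 were Tln2-null replicate 4 (-0.25), knockout replicate 2 (-0.23) and Tln2-null replicate 6 (-0.17), all 3 labelled female. The highest 3 were knockout replicates 6, 5 and 4 (0.15, 0.14 and 0.14). In Tln2-null replicate 6, 0 of 30 genes exceeded their mean, and in knockout replicate 4, 28 did. The highest 5 medians were all of knockout mice, the lowest of these at 0.06, and the highest Tln2-null mouse stood at 0.05. Of the 3 lowest, 2 were Tln2-null and 1 was knockout.

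**Figure D4:**
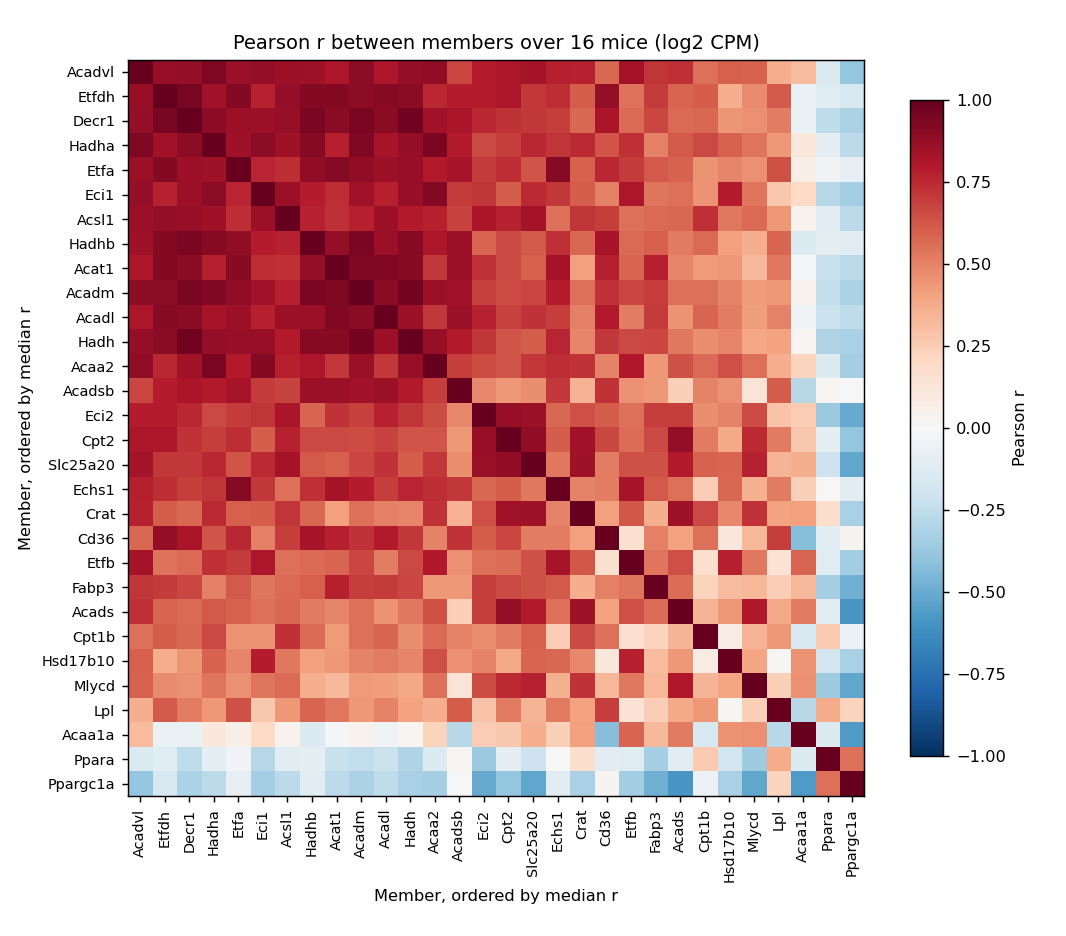
Pearson r of log2 CPM between each pair of the 30 genes over 16 mice, genes ordered by their median r. The enzymes form a block of positive r led by Acadvl (median r 0.81), while Ppara and Ppargc1a at the lower right have negative r with most genes (medians -0.12 and -0.32) and a positive r of 0.551 with each other.

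Of the 435 pairs of genes, 376 had r above 0 over the 16 mice (median r 0.59). By permutation with adjustment over the 435, 257 positive and 2 negative pairs had adjusted p under 0.05. Pairs among all genes tested were not counted. Whether the listed genes moved together more closely than other genes was therefore not tested. All values share the scaling of each library, and each pair of genes shares the same mice. Acadvl had the highest median r with the other 29, 0.81, and its closest partner was Hadha (r = 0.932). The closest single pair was Decr1 with Hadh (r = 0.965). Acadm was also closest to Hadh (r = 0.956). Lpl was looser, with a median r of 0.40 and 5 positive partners under the adjusted threshold, of which Cd36 was the closest.

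Acaa1a, of the peroxisome, had a median r of 0.06. Ppara had negative r with 24 of 29 genes, and Ppargc1a had negative r with 26 of 29. The 2 negative pairs under the adjusted threshold were Ppargc1a with Acads (r = -0.581) and with Acaa1a (r = -0.564). The 2 regulators went together (r = 0.551, rho = 0.6, adjusted permutation p = 0.0311 and 0.0179 over 8 pairs; r = 0.598 without the 2 mice farthest from the median). Within genotypes this was r = 0.576 and 0.487 (exact permutation p = 0.136 and 0.225). For Ppargc1a with Cpt1b no relation was detected (r = -0.06, rho = -0.07, adjusted permutation p = 0.832 and 0.788; r = -0.28 without such mice), and the counts of Cpt1b were low.

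Of the other fixed pairs, Cpt2 with Slc25a20, consecutive steps of the shuttle, had r = 0.885 and rho = 0.809 (adjusted permutation p = 8e-05 and 0.00109; r = 0.849 without the 2 mice farthest from the median). Cd36 with Lpl had r = 0.691 and rho = 0.694 (adjusted permutation p = 0.004 and 0.00673; r = 0.745 without such mice), and within knockout mice r = 0.504 (exact permutation p = 0.201). Cpt1b with Slc25a20 had r = 0.591 and rho = 0.679 (adjusted permutation p = 0.0236 and 0.00673; r = 0.739 without such mice). Within a genotype the last was no longer under 0.05 (exact permutation p = 0.121 in Tln2-null and 0.116 in knockout mice).

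**Figure D5:**
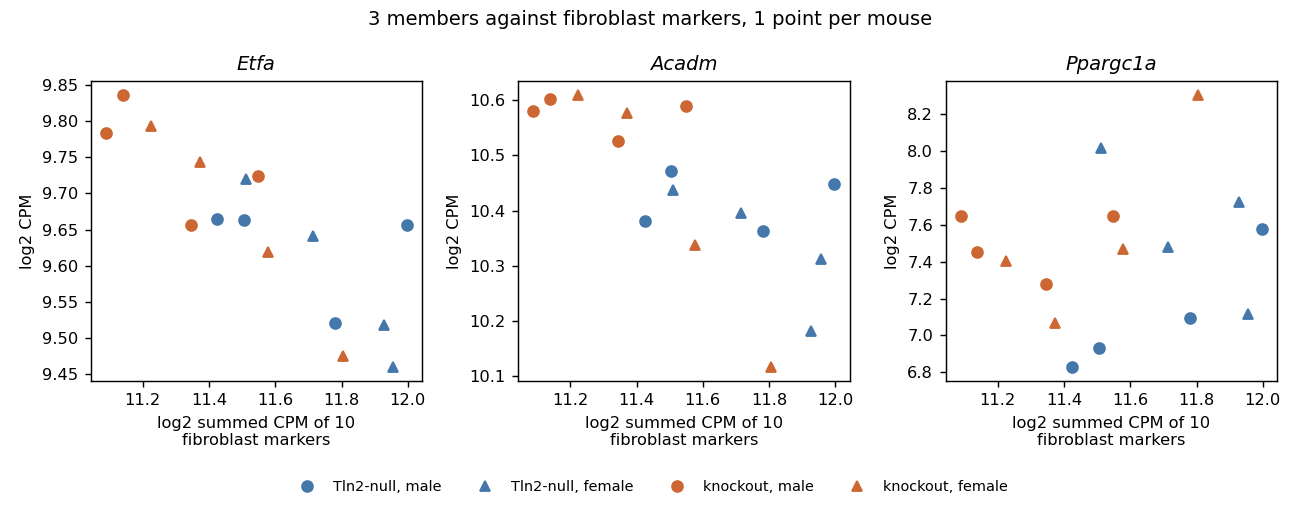
Log2 CPM of Etfa, Acadm and Ppargc1a against the log2 summed CPM of 10 fibroblast markers, 1 point per mouse, by genotype (colour) and sex (shape). Etfa falls as the markers rise (r = -0.836), Acadm does so too (r = -0.745), and Ppargc1a does not (r = 0.16).

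The level of the enzymes ran against that of the fibroblast markers. Over the 16 mice, 29 of 30 genes had negative r with the summed fibroblast markers (median r -0.64). By permutation, adjusted over 60 relations with 2 marker sums, 22 were under 0.05 by r and 19 by rho. How many of all genes tested had such a relation was not counted. The sum was not weighted, and Gsn was its largest part. Among Tln2-null mice Gsn averaged 1350 CPM, beside a median sum of 3440 CPM. Among knockout mice these values were 1094 and 2626 CPM. Etfa had the lowest r, -0.836 (rho = -0.818, adjusted permutation p = 0.0025 and 0.0034; r = -0.919 without the 2 mice farthest from the median marker sum). Within Tln2-null mice r was -0.67 for Etfa (exact permutation p = 0.0744) and within knockout mice -0.892 (exact permutation p = 0.00265). Within the genotypes, 27 and 28 of 30 genes had negative r, of which 3 and 19 had an exact permutation p under 0.05. Nearest to 0 were Ppara (r = -0.01) and Acaa1a (r = -0.09), and Ppargc1a had the positive r (0.16).

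All 10 fibroblast markers were lower in knockout mice (median log2 fold change -0.43; 0 of 10 passed in edgeR, as 0 percent of all genes did, and 7 had an unadjusted p under 0.05, against 5.08 percent). Tcf21, a transcription factor of cardiac fibroblasts, averaged 11.5 ± 2.48 CPM over the Tln2-null and 6.11 ± 2.16 CPM over the knockout mice (8 mice each, SD). The dermatopontin gene Dpt stood at 134 ± 24.5 and 99.3 ± 20.9 CPM. Of the cardiomyocyte markers, 9 of 10 were above 0, against 48.8 percent of all genes (median 0.07, 0 passed, 2 at an unadjusted p under 0.05), led by Ryr2 at 0.15 ± 0.06 and Pln at 0.16 ± 0.07. With the summed cardiomyocyte markers 28 of the 30 genes had positive r over all mice, 16 under the adjusted threshold by permutation. For this sum, too, the relations of all genes tested were not counted. Within knockout mice 2 of 30 genes had negative r, and 19 of 30 had an exact permutation p under 0.05. Within Tln2-null mice 20 had negative r, and none of these was distinguishable from 0. The 1 gene with an exact permutation p under 0.05 there was Ppargc1a, at a positive r of 0.91 (exact permutation p = 0.000992). Within knockout mice Ppargc1a had r = -0.662 (exact permutation p = 0.101). A difference between the genotypes in the relations with the cardiomyocyte markers was not tested. What part the make-up of the tissue had in the genotype difference was not tested.

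Genes around the pathway outside the 30 were counted from fixed lists, and 0 genes of any list passed between genotypes or sexes. Of 21 other mitochondrial acyl-CoA enzymes, 17 were above 0 between genotypes (median 0.07) and 20 below 0 between sexes (median -0.08). At an unadjusted p under 0.05 there were 4 of 21 between genotypes and 1 of 21 between sexes, against 5.08 and 3.69 percent of all genes. The lowest p between genotypes were those of Echdc1, which removes stray ethylmalonyl-CoA, at 0.16 ± 0.06, and Mut, the methylmalonyl-CoA mutase, at 0.15 ± 0.07. Between sexes they were those of the acyl-CoA dehydrogenase gene Acad11 (-0.17 ± 0.08) and the isomerase gene Ech1 (-0.16 ± 0.08). Of 16 peroxisomal genes, 12 were above 0 between genotypes (median 0.04) and 14 below 0 between sexes (median -0.08). Lowest p had the reductase gene Pecr (0.16 ± 0.08) and the carnitine octanoyltransferase gene Crot (0.08 ± 0.05) between genotypes, and the bifunctional enzyme gene Ehhadh (-0.50 ± 0.25) and the racemase gene Amacr (-0.12 ± 0.06) between sexes.

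Of 18 genes of fatty acid entry and activation outside the 30, 9 were above 0 between genotypes (median 0.0002), and 13 were below 0 between sexes. Their lowest p had the acetyl-CoA synthetase gene Acss1 (0.12 ± 0.06) and the lipoprotein receptor gene Vldlr (0.16 ± 0.09) between genotypes, and Acsl6 (-0.30 ± 0.13) and the Lpl inhibitor gene Angptl4 (-0.93 ± 0.48) between sexes. Of 14 lipid droplet genes 7 were above 0 (median 0.01), with Gpat3, a triglyceride synthesis gene, at 0.21 ± 0.12 and the droplet coat gene Plin5 at -0.15 ± 0.12. Between sexes 9 of the 14 were below 0, with Plin2 at -0.19 ± 0.10 and Gpat3 at -0.21 ± 0.12.

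Of 23 further regulators 16 were above 0 between genotypes (median 0.05), against 48.8 percent of all genes, and 4 had an unadjusted p under 0.05, against 5.08 percent. Esrrg, an oestrogen-related receptor that drives mitochondrial genes in the heart, averaged 68.3 ± 6.26 CPM over the Tln2-null and 76.4 ± 3.61 CPM over the knockout mice (8 mice each, SD). Its difference of 0.16 ± 0.06 had the smallest adjusted p of these lists (0.799, edgeR), and Gabpa, a subunit of nuclear respiratory factor, followed at 0.15 ± 0.06. Between sexes 13 of the 23 were below 0, and the lowest p were those of the corepressor gene Ncor1 (-0.08 ± 0.05) and the muscle coactivator gene Perm1 (0.09 ± 0.07). Of 10 genes of ketone use and the switch from pyruvate 5 were above 0 (median -0.0037). The ketone-using enzyme gene Oxct1 was at 0.11 ± 0.05 and the pyruvate dehydrogenase phosphatase gene Pdp1 at 0.18 ± 0.11. Between sexes 8 of the 10 were below 0, with Pdk4, the kinase that shuts off pyruvate oxidation, at -0.54 ± 0.41 and Ucp3 at -0.52 ± 0.40. Pdk4 ran from 238 to 2960 CPM over the 16 mice, a far wider range than any of the 30 genes.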

How the data were processed

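RNA was extracted from left ventricle with TRIzol and a column kit and made into strand-specific libraries, per the labels' protocols. The submitters' processing notes name DRAGEN, DESeq2 and mm10 without their roles, and how strand and shared reads were counted is given nowhere in the sources used here. The authors deposited whole-number counts per gene for 24982 entries (26 with date-like names, 2 repeated, 5760 at 0 in every library). They also deposited a normalized signal for 16405 genes, and for the 16384 compared the normalized signal times 1 factor per library gave the deposited counts within 0.001.

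The counts were tested with edgeR 4.0.16 (R 4.3.3): 13775 genes passed filterByExpr, all 30 genes of the list among them, libraries were scaled by TMM, and the quasi-likelihood test used genotype and sex as terms, with the interaction, the sexes apart and the title number as further fits. Standard errors were taken as the absolute log2 fold change divided by √F. The fits were tested on simulated data. Alternatives were DESeq2 1.42.0 and its size factors, limma 3.58.1 (voom with quality weights, and on log2 of the normalized values plus 1), no filter or 1 CPM in 8 libraries, each term dropped or added, and leaving out each mouse, the 2 libraries apart in clock genes and the 4 females with Y-linked counts. The fibroblast term and the median without Cpt1b were chosen after seeing the data.

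The genes and lists were chosen with earlier results of these data known. Named genes were, by rule, the 4 lowest p in each direction between genotypes, 3 between sexes, 3 in the interaction, and the highest per length in each role. Other genes were named after their values were seen. Correlations used log2 CPM with 100000 permutations over 16 mice and exact enumeration over 8. Lengths came from GENCODE M21 (APPRIS principal mRNA), and positions and start windows from RefSeq (GRCm38.p6). The median standard error was 0.07 for the 30 genes and 0.09 over all genes.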

Additional observations from a re-analysis of the deposited data

Results flagged for a closer look

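In each genotype, the 30 genes and the summed fibroblast and cardiomyocyte markers were checked for a mouse far from the others, by the gap to its nearest neighbour over the range of the 8 mice. Of 64 groups 4 held such a mouse, and chance gives about 1 in 20. Lpl stood at 4697 CPM in knockout replicate 6, against 3618 to 4085 CPM in the other knockout mice. Fabp3 stood at 1860.2 CPM in Tln2-null replicate 3, against 1497 to 1634 CPM in the others of its group. Hsd17b10 stood at 185 CPM in Tln2-null replicate 5, against 153 to 165 CPM. Ppargc1a stood at 316 CPM in knockout replicate 2, against 134 to 201 CPM, and this is the knockout mouse with the lowest median over the 30 genes.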

How the results depend on the processing

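None of the 30 genes was called between genotypes under any of 27 settings (lowest adjusted p 0.304, for Acat1). Acadm, Acadsb, Ppara and Ppargc1a were above 0 in all 27, although with the fibroblast term Acadm stood at 0.00231 and Acadsb at 0.00554, and the other 26 changed direction in at least 1. Genes called between genotypes, 0 in all, became 1 with no filter, 17 with DESeq2, 11 with voom, 5 without the 2 libraries apart in clock genes, and 0 to 7 with a mouse left out (3 without Tln2-null replicate 1, 1 without Tln2-null replicate 4, 7 without knockout replicate 8). Genes called between sexes went from 12 to 21 with DESeq2 (10 to 14 with a mouse left out). Genes of the 30 above 0 between genotypes went from 28 to 18 without the females with Y-linked counts and to 4 with the fibroblast term (25 to 29 with a mouse left out). With the fibroblast term, log2 fold changes were below 0 for Lpl (-0.0563), Cd36 (-0.00693), Fabp3 (-0.0397), Acsl1 (-0.0478), Cpt1b (-0.0228), Slc25a20 (-0.119), Cpt2 (-0.119), Crat (-0.0573), Acadvl (-0.0483), Acadl (-0.0140), Acads (-0.0828), Hadha (-0.0239), Hadhb (-0.00442), Echs1 (-0.0307), Hadh (-0.0373), Hsd17b10 (-0.0168), Acaa2 (-0.0682), Acat1 (-0.0137), Eci1 (-0.0593), Eci2 (-0.0877), Decr1 (-0.0842), Etfa (-0.0189), Etfb (-0.0635) and Etfdh (-0.0490). Without the females with Y-linked counts they were below 0 for Fabp3 (-0.00347), Slc25a20 (-0.0737), Cpt2 (-0.0364), Crat (-0.0132), Acads (-0.0558), Hsd17b10 (-0.0843), Acaa2 (-0.0320), Eci1 (-0.0590), Eci2 (-0.0684) and Etfb (-0.0450), and the Eci2 interaction was -0.0790. In the fit without those females, knockout replicate 2 was the only knockout female. Mlycd turned to 0.0108 with voom and 0.0181 without the 2 libraries apart. With a mouse left out, Acads ran from -0.000936 to 0.0507, Hsd17b10 ran from -0.00139 to 0.0684, Acaa1a ran from -0.0503 to 0.0107, Etfb ran from -0.00363 to 0.0645, Mlycd ran from -0.101 to 0.0109. Ppargc1a with Cpt1b had r = 0.253 in males. For these changes the cause was not tested. No paired analysis was possible because the replicate numbers only name mice and the title numbers are not shared between groups. Cpt1b, at 37 to 82 counts, is the gene that depth limits.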
